A study of Mus musculus with 6 samples.

Results

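The 6 genes described here encode channels and a pump subunit of the sarcolemma, the surface membrane of the muscle fibre: *Clcn1*, *Scn4a*, *Kcnj2*, *Kcnj11*, *Abcc9* and *Atp1b1*. They were picked by symbol out of the 27179 genes with counts for their function, and all 6 passed the filter on low counts that left 16483 genes to be tested. RNA was sequenced from the quadriceps of 3 control and 3 miDrp1KO mice on normal chow, 3 weeks after deletion of *Dnm1l*, the gene of the mitochondrial fission GTPase Drp1. The miDrp1KO mice carry floxed *Dnm1l* and HSA-MerCreMer, a Cre that tamoxifen activates and that the human skeletal actin promoter restricts to muscle fibres, on a C57BL/6J background. Controls are labelled f/f, are flox/+ or flox/flox in the study's methods, which do not say whether they carry Cre, and received tamoxifen as well. On each of 4 days, mice aged 3 months received 50 mg/kg of tamoxifen. Cells other than fibres keep *Dnm1l* in this model, and in whole muscle fewer cells of a type and less RNA per cell cannot be told apart. Libraries are named by the letters in their titles: B, C and D are controls, and A, E and F are miDrp1KO.

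A muscle fibre rests at a negative potential set by potassium and chloride conductances, fires when sodium channels open, and restores its ion gradients through the sodium pump. *Scn4a* encodes the voltage-gated sodium channel that carries the upstroke of the action potential in adult skeletal muscle. *Clcn1* encodes the chloride channel that steadies the resting fibre, and its loss causes myotonia. *Kcnj2* encodes an inward rectifier potassium channel that holds the resting potential. *Kcnj11* encodes the pore and *Abcc9* the sulfonylurea receptor of the ATP-sensitive potassium channel (KATP), which opens when ATP falls. *Atp1b1* encodes a beta subunit of the sodium pump, which brings the catalytic subunit to the membrane.

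Libraries held 13989588 to 62042255 counts, of which the 6 genes took 0.0731% to 0.128%. *Dnm1l* itself stood at 156, 114 and 140 CPM (counts scaled to a common library size, after TMM normalisation) in controls and at 70.6, 81.3 and 66.2 CPM in miDrp1KO, so each library matched its label. The share of ribosomal RNA ran from 1.48% in E to 24.4% in F and differed within both groups. Fibre markers were not even across libraries. The summed level of 10 fast fibre markers was 138320 to 156800 CPM in controls and 69980 to 120710 CPM in miDrp1KO, and 9 of the 10 were lower (median log2 fold change −0.59). All 8 slow fibre markers were higher on average, but their sum overlapped between groups, at 68.3 to 526 CPM in controls and 119 to 776 CPM in miDrp1KO. Of 6 markers of fibres of any type (actin, creatine kinase, titin, nebulin, desmin and myoglobin) 5 were lower (median −0.51), with sums of 146560 to 205710 CPM in controls and 66904 to 154510 CPM in miDrp1KO. All 7 adipose markers were lower, with sums of 428 to 691 CPM against 284 to 408 CPM. Of 7 macrophage markers 5 were higher, with sums of 126 to 238 CPM against 207 to 219 CPM. Of 7 fibroblast markers 6 were higher, with sums of 1264 to 1829 CPM in controls and of 1422, 2359 and 1844 CPM in A, E and F. Of 7 Schwann cell markers 6 were higher, with sums of 15.9 to 33.3 CPM against 21.2 to 38.3 CPM. The part of these shifts in the results below was not tested. A fit with the slow fibre markers as a covariate is given for the 6 genes, and it does not assign a cause.

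Of the 6 genes, 4 were lower in miDrp1KO (*Scn4a*, *Abcc9*, *Kcnj11* and *Clcn1*) and 2 were higher (*Kcnj2* and *Atp1b1*). Their median log2 fold change was −0.31, while that of all tested genes was 0.017 and 48.0% of those were lower. None of the 6 passed an adjusted p of 0.05 in edgeR's quasi-likelihood test, where 0.0121% of all genes did. At an unadjusted p under 0.05 only *Scn4a* passed, against 10.9% of all genes in either direction and 6.22% in the lower direction. DESeq2, run on the same counts, called none of the 6 and 2.55% of the genes it adjusted. The 2 groups did not overlap for *Scn4a* and *Kcnj2*, and 18.0% of all genes had groups that did not overlap.

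**Figure D1:**
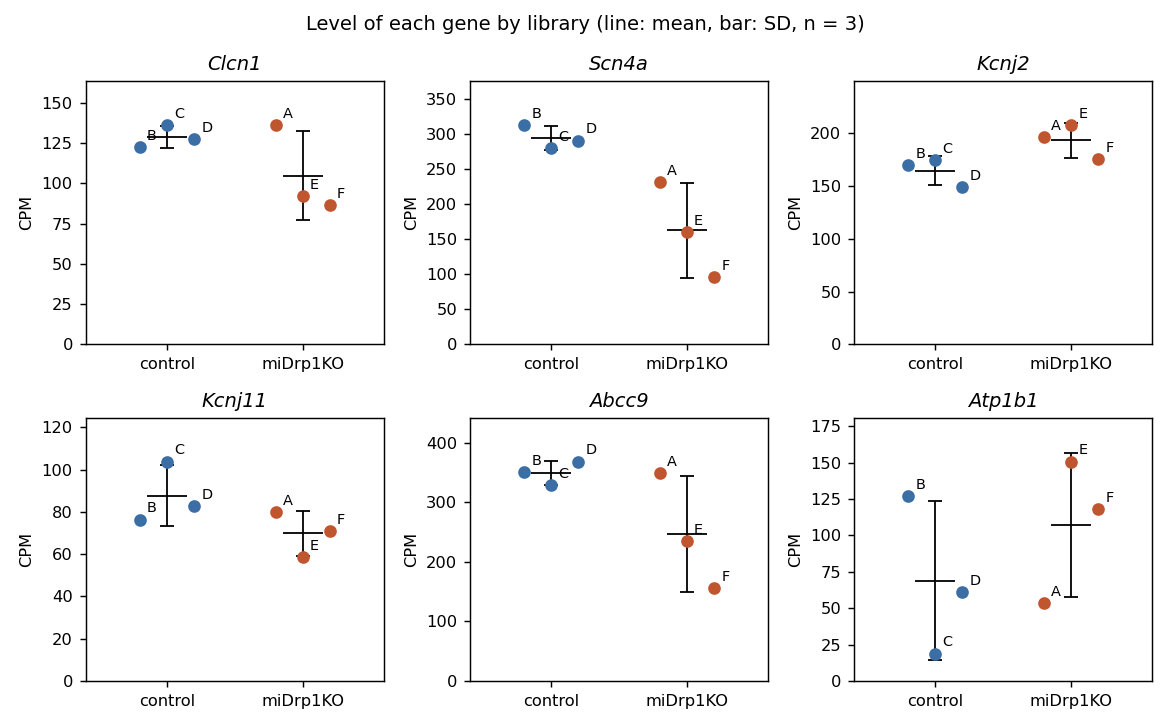
Level of each gene in each library, in CPM from 0 (linear axes). Points are libraries A to F, blue for control and orange for miDrp1KO, the horizontal line is the group mean and the bar the SD (n = 3). The groups separate for *Scn4a* and, by a narrow margin, for *Kcnj2*.

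*Scn4a* (Entrez 110880, on the minus strand of chromosome 11 at 106318592 to 106353288 in GRCm38) differed most in its unadjusted test. Controls stood at 313, 280 and 291 CPM, and miDrp1KO at 232 in A, 160 in E and 95.5 in F. Every miDrp1KO library was below every control, and the spread widened from a coefficient of variation of 5.74% in controls to 41.9% in miDrp1KO. The mean was 295 ± 16.9 CPM (SD, n = 3) against 162 ± 68.1 CPM, a log2 fold change of −0.86 (SE 0.28, unadjusted p = 0.0115, adjusted p = 0.382 by edgeR). As a fold, miDrp1KO held 0.551 of the control level (95% interval 0.358 to 0.849). The exact two-sided permutation test over the 6 libraries gave p = 0.1, the smallest that 3 against 3 allows, and DESeq2 gave an adjusted p of 0.0509. The log2 fold change was −1.18 without A (adjusted p = 0.0672 by edgeR) and −0.57 without F (adjusted p = 0.639).

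*Myh4*, the fastest myosin heavy chain, had the same order among the miDrp1KO libraries, at 40363 in A, 17190 in E and 12241 CPM in F, against 49885 to 62914 CPM in controls. The very long transcripts of *Ttn* and *Neb* were also lowest in F, at 26349 and 5886 CPM, against 87773 to 141260 and 20985 to 28558 CPM in controls. With a correction for exon length and GC content, the log2 fold change of *Scn4a* was −0.81 (adjusted p = 0.306 by edgeR), in place of −0.86. Beyond that fit, whether *Scn4a* shares in either pattern was not tested.

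*Clcn1* (Entrez 12723, plus strand of chromosome 6, 42286685 to 42315756) stood at 123, 136 and 127 CPM in controls and at 136 in A, 91.8 in E and 86.2 CPM in F. Library A was as high as the highest control, while E and F were below all 3. The means of 129 ± 6.80 and 105 ± 27.4 CPM differed by a log2 fold change of −0.30 (SE 0.20, 95% interval −0.74 to 0.15), with an adjusted p of 0.616 by edgeR. Without F the value was −0.16 and without A it was −0.51 (adjusted p = 0.166 by edgeR).

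*Kcnj2* (Entrez 16518, plus strand of chromosome 11, 111066164 to 111076821) was higher in all 3 miDrp1KO libraries. Controls stood at 170, 175 and 149 CPM and miDrp1KO at 197, 208 and 176 CPM, so that the highest control and the lowest miDrp1KO library were 175 and 176 CPM. The log2 fold change was 0.23 (SE 0.17, 95% interval −0.15 to 0.62, adjusted p = 0.649 by edgeR; exact permutation p = 0.1). It was the steadiest of the 6 genes in miDrp1KO, with a coefficient of variation of 8.47%, close to the 8.41% of controls.

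**Figure D2:**
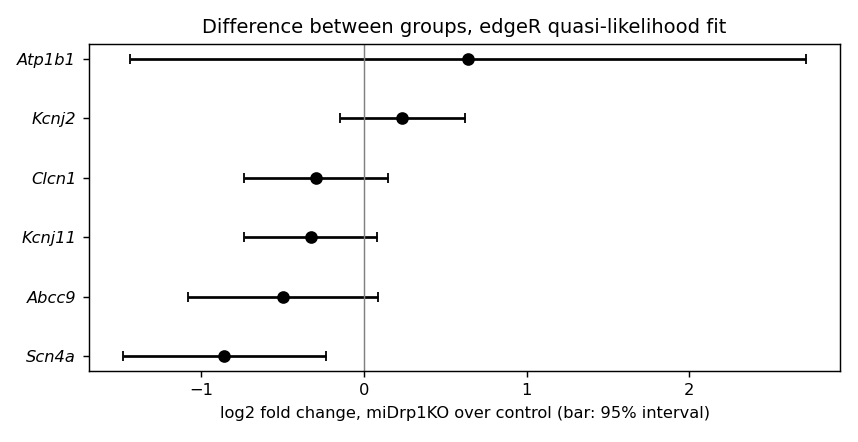
Log2 fold change of each gene, miDrp1KO over control, on the horizontal axis, with 95% intervals from the edgeR fit (n = 3 per group). The interval of *Scn4a* lies below 0, and that of *Atp1b1* runs from −1.44 to 2.72.

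The promoters of *Scn4a* and *Kcnj2*, the 2 genes whose groups did not overlap and whose differences had opposite signs, are shown with that of *Clcn1*, the one with the most motif matches. Each is the 250 bases before the RefSeq start of the gene in GRCm38.p6, read 5′ to 3′ on the gene's strand. Capitals mark matches, on either strand, to the E-box CANNTG bound by myogenic factors (which takes in its form CAGCTG), to the MEF2 motif, and to TATAAA. The CArG box and the NR4A motif AAAGGTCA were searched as well and had no match in them. The windows are chr11:106349391-106349640 (minus strand) for *Scn4a*, chr11:111065914-111066163 (plus strand) for *Kcnj2* and chr6:42286435-42286684 (plus strand) for *Clcn1*.
Scn4a: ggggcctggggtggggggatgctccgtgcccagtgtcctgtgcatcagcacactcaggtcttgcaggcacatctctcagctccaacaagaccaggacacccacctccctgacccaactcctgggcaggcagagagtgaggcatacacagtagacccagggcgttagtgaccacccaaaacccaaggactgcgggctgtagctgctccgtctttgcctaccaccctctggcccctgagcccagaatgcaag
Kcnj2: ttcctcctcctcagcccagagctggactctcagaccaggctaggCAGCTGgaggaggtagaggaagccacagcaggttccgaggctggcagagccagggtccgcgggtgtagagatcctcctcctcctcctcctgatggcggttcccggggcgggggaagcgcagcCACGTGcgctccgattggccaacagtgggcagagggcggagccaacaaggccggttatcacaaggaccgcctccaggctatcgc
Clcn1: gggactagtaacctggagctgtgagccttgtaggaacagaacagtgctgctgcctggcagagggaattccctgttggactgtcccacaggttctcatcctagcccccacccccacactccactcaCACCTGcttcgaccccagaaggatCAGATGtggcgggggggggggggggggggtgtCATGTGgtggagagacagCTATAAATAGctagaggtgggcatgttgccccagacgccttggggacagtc

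The *Clcn1* window held 3 E-boxes, at 125, 101 and 69 bases before the start, and a MEF2 match at 51 bases that overlaps a TATAAA match at 50 bases. The *Kcnj2* window held 2 E-boxes, of which the one at 206 bases is CAGCTG and the other, at 84 bases, is CACGTG. The *Scn4a* window, which lies inside the gene by the longer GENCODE model whose coordinates are given above, held none of these motifs, and the bases before the GENCODE start were not searched. The *Abcc9* window (chr6:142702275-142702524, minus strand) held 1 CAGCTG at 27 bases. That match, with the part of the window nearest the RefSeq start, lies inside the gene by the GENCODE model, which reaches 142702315. The *Atp1b1* window (chr1:164458356-164458605, minus strand) held none. Among 32851 RefSeq promoters cut to the same length, 66.2% held CANNTG, 13.0% CAGCTG, 2.92% the MEF2 motif, 12.4% TATAAA, 1.47% the CArG box and 1.34% AAAGGTCA. E-boxes are thus found in most promoters, and the matches are descriptions, not sites shown to be bound.

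The KATP genes were both lower on average, and both overlapped between groups. *Abcc9* (Entrez 20928, minus strand of chromosome 6, 142587862 to 142702315) stood at 351, 329 and 369 CPM in controls, and at 350 in A, 236 in E and 157 CPM in F. A lay within the control range, while E and F were below it. The log2 fold change was −0.50 (SE 0.27, unadjusted p = 0.0868, adjusted p = 0.524 by edgeR), and it ran from −0.24 without F to −0.81 without A. *Kcnj11* (Entrez 16514, minus strand of chromosome 7, 46093953 to 46100764) stood at 76.4, 104 and 82.9 CPM in controls and at 79.8 in A, 58.6 in E and 71.1 CPM in F. Its log2 fold change was −0.33 (SE 0.19, adjusted p = 0.552 by edgeR) and was −0.21 without C, the highest control, or without E, the lowest miDrp1KO library.

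*Abcc9* is also made by vascular smooth muscle and pericytes, where its partner pore is *Kcnj8*. *Kcnj8* stood at 17.5, 8.60 and 13.5 CPM in controls and at 12.5, 13.9 and 15.5 CPM in miDrp1KO. The 8 smooth muscle and pericyte markers summed to 149 to 227 CPM in controls and 153 to 238 CPM in miDrp1KO, 4 of them lower and 4 higher, and none passed at an unadjusted p under 0.05. *Abcc8*, the other sulfonylurea receptor gene, was low, at 2.51 to 3.46 CPM in controls and 1.81 to 3.16 CPM in miDrp1KO.

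*Atp1b1* (Entrez 11931, minus strand of chromosome 1, 164437109 to 164458355) was the most variable of the 6. It stood at 127 in B, 18.7 in C and 60.9 CPM in D, and at 53.6 in A, 151 in E and 118 CPM in F. Controls alone spanned a 6.78-fold range, and the groups overlapped. The means of 68.9 ± 54.5 and 107 ± 49.4 CPM differed by a log2 fold change of 0.64 (SE 0.80, 95% interval −1.44 to 2.72, adjusted p = 0.811 by edgeR). This value was 1.44 without B, 0.99 without A, 0.32 without E and 0.17 without C.

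This beta subunit is known to be more abundant in slow, oxidative fibres. A slow fibre score, the mean log2 CPM of the 8 slow markers, was 5.65 in B, 1.90 in C and 3.18 in D, and 2.62 in A, 6.34 in E and 6.18 in F. *Atp1b1* was lowest in C, then A, then D, as the score was, and highest in E. B, a control, stood with E and F in both measures. With the score as a covariate in the edgeR fit, the *Atp1b1* log2 fold change was 0.12 (adjusted p = 0.921), that of *Clcn1* −0.16 in place of −0.30, and that of *Kcnj11* −0.18 in place of −0.33. *Abcc9* stood at −0.38, *Scn4a* at −0.76 and *Kcnj2* at 0.24 in that fit. The score was higher on average in miDrp1KO, so score and genotype cannot be fully told apart in 6 libraries. Whether fibre type accounts for any of these values was not tested.

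**Figure D3:**
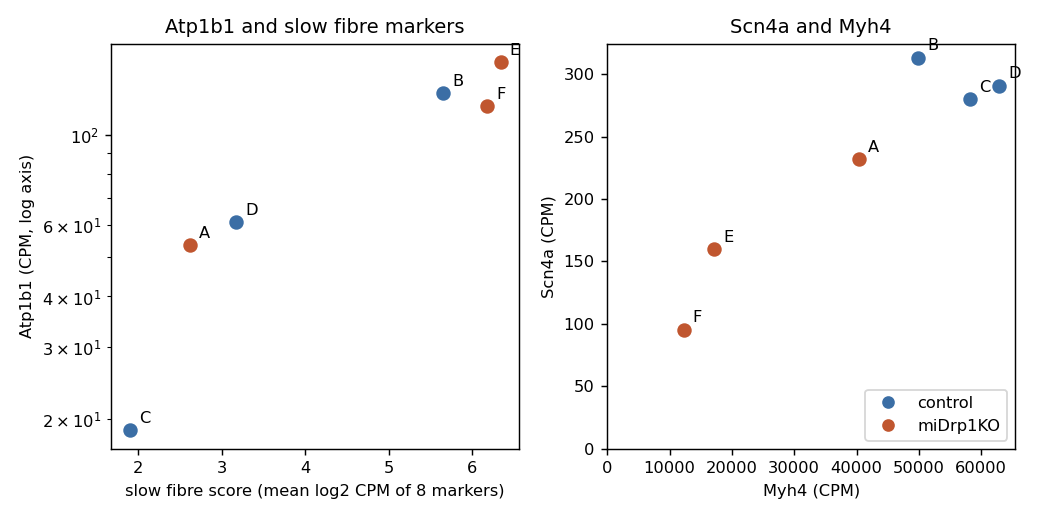
Left, *Atp1b1* (CPM, log axis) against the slow fibre score (mean log2 CPM of 8 markers); right, *Scn4a* against *Myh4* (both in CPM, linear axes). Each point is a library, blue for control and orange for miDrp1KO; B, E and F sit together on the left, and A, E and F descend in that order on the right.

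Levels between genes were compared per kilobase of exon (RPKM, from the TMM-scaled CPM). In controls the order was *Scn4a* (41.9 ± 2.40 RPKM, SD, n = 3), *Abcc9* (41.7 ± 2.39), *Kcnj2* (30.2 ± 2.54), *Kcnj11* (23.9 ± 3.90), *Clcn1* (23.7 ± 1.25) and *Atp1b1* (22.3 ± 17.7). Among neighbours in this order, *Abcc9* and *Kcnj2* did not overlap, at 39.3 to 44.0 and 27.3 to 32.1 RPKM, and the other neighbours did. The 6 genes ranked 554 to 1101 among 14827 genes with a length. In miDrp1KO *Kcnj2* came first (35.5 ± 3.01 RPKM), followed by *Atp1b1* (34.8 ± 16.0), *Abcc9* (29.5 ± 11.6), *Scn4a* (23.1 ± 9.67), *Clcn1* (19.3 ± 5.05) and *Kcnj11* (19.0 ± 2.89). No pair of neighbours in that order was separate, but *Kcnj2*, from 32.3 RPKM up, was above every value of *Clcn1* and *Kcnj11*.

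Ratios within a library do not depend on its normalisation, and 7 pairs were compared by exact permutation tests, whose smallest p is 0.1. The ratio of *Clcn1* to *Scn4a* per length was 0.508, 0.630 and 0.568 in controls and 0.763, 0.743 and 1.17 in A, E and F, higher in 3 of 3 (exact p = 0.1, Benjamini-Hochberg 0.233 over the 7). Its log2 difference of 0.62 was 0.41 without F. The ratio of *Clcn1* to *Kcnj2* was 0.724, 0.780 and 0.858 against 0.695, 0.443 and 0.492, lower in 3 of 3 (exact p = 0.1, adjusted 0.233 as well). Chloride channel transcript was thus higher relative to the sodium channel and lower relative to the inward rectifier in every miDrp1KO library. Neither ratio had an adjusted p under 0.05. *Clcn1* itself overlapped between groups while *Scn4a* and *Kcnj2* did not, so these ratios are not independent of the differences in those genes. How often the ratio of any pair of genes separates the groups was not computed. *Kcnj12*, which encodes another inward rectifier of the same subfamily, was 0.370, 0.447 and 0.583 of *Kcnj2* in controls and 0.332, 0.251 and 0.320 in miDrp1KO, lower in 3 of 3 (exact p = 0.1, adjusted 0.233).

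A further 2 ratios overlapped between groups. *Kcnj11* to *Abcc9*, the pore to its receptor, was 0.576 ± 0.125 in controls and 0.707 ± 0.284 in miDrp1KO (exact p = 0.5), and the sign of this difference turned without F. *Kcnj8* to *Abcc9* was 0.123 ± 0.0389 against 0.212 ± 0.105 (exact p = 0.3), and its log2 difference of 0.71 was 0.34 without F and 1.08 without A.

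**Figure D4:**
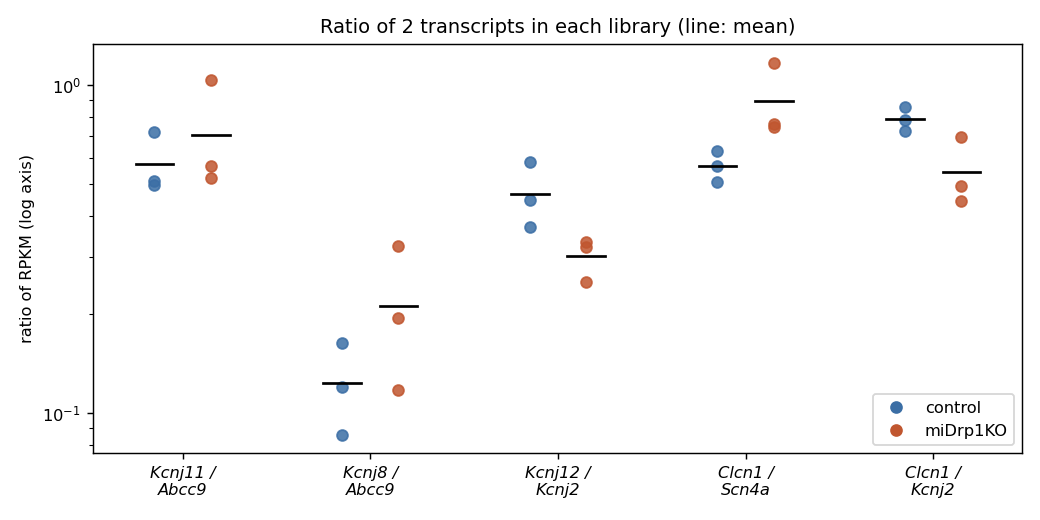
Ratio of RPKM of 2 transcripts in each library (log axis) for 5 of the 7 pairs, named under the axis; blue points are controls, orange points miDrp1KO, and lines the means (n = 3). The groups separate for *Kcnj12* to *Kcnj2*, *Clcn1* to *Scn4a* and *Clcn1* to *Kcnj2*.

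Of 112 other ion transport genes in 7 lists, 102 were tested and none passed an adjusted p of 0.05 in edgeR. DESeq2 gave an adjusted p for 32 of the 102 and called 3 of them, *Kcna7*, *Kcnc4* and *Sptb*, all lower in miDrp1KO (9.38%, against 2.55% of all genes it adjusted). At an unadjusted p under 0.05, 17 passed (16.7%, against 10.9% of all genes), 11 lower and 6 higher. By sign alone 53 were lower and 49 higher, and the median of the 102 was −0.01 on the log2 scale.

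Among 13 sodium channel genes, 3 were lower and 10 higher (median 0.38). *Scn4b*, which encodes a beta subunit, stood at 230, 216 and 229 CPM in controls and at 161, 173 and 168 CPM in miDrp1KO (log2 fold change −0.42, unadjusted p = 0.0274, adjusted p = 0.414 by edgeR). It was below every control in every miDrp1KO library, as *Scn4a* was. Of 11 tested genes on a denervation list, 5 were lower and 6 higher, 2 at an unadjusted p under 0.05 in each direction.

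Among 14 chloride channel genes, 9 were lower and 5 higher (median −0.13). *Ano10*, an anoctamin, was the one that passed at an unadjusted p under 0.05, at 23.8 ± 1.04 CPM in controls and 16.0 ± 3.68 CPM in miDrp1KO (log2 fold change −0.57). *Ano5*, the most abundant and a gene of limb-girdle dystrophy, stood at 318 ± 28.9 and 279 ± 57.8 CPM (−0.19), and *Clcn4* at 94.2 ± 13.1 and 73.8 ± 10.3 CPM (−0.35).

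Among 9 tested inward rectifier and KATP genes beside *Kcnj2*, *Kcnj11* and *Abcc9*, 4 were lower and 5 higher (median 0.03). *Kcnj12*, the most abundant, stood at 31.7, 39.4 and 43.8 CPM in controls and 33.0, 26.4 and 28.4 CPM in miDrp1KO, with overlap between A and B (log2 fold change −0.39, unadjusted p = 0.0432). *Kcnj3* was higher at less than 1 CPM in every library (1.64, unadjusted p = 0.0214).

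Of 32 other potassium channel genes 16 were lower and 16 higher, with 5 lower and 2 higher at an unadjusted p under 0.05, where 6.22% of all genes were lower and 10.9% passed in either direction. The voltage-gated channel genes *Kcna7* and *Kcnc4* had the lowest unadjusted p. *Kcna7*, the most abundant of the list, stood at 241, 177 and 201 CPM in controls and 149, 131 and 114 CPM in miDrp1KO (log2 fold change −0.65, unadjusted p = 0.00596, adjusted p = 0.379 by edgeR and 0.0467 by DESeq2). *Kcnc4* stood at 31.3, 37.8 and 33.2 CPM against 22.9, 21.9 and 20.5 CPM (−0.64, unadjusted p = 0.00127, adjusted p = 0.362 by edgeR and 0.0449 by DESeq2). Neither gene's groups overlapped.

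Among 11 tested sodium pump genes other than *Atp1b1*, 5 were lower and 6 higher (median 0.12). Among the other beta subunits, *Atp1b2* stood at 24.6, 19.4 and 15.2 CPM in B, C and D and at 27.9, 11.3 and 8.97 CPM in A, E and F, and *Atp1b3* at 20.4 to 24.6 CPM in all 6 libraries. *Atp1b4*, named after its values were seen, stood at 8.81, 2.62 and 7.65 CPM in B, C and D and at 5.20, 11.9 and 7.68 CPM in A, E and F, the same order of libraries as *Atp1b1*. Of the FXYD regulators of the pump, *Fxyd2* was higher in all 3, from 1.04, 1.02 and 1.03 CPM to 2.19, 2.52 and 2.83 CPM (1.28, unadjusted p = 0.00123, adjusted p = 0.362 by edgeR), and *Fxyd5* lower (−0.47, unadjusted p = 0.0384).

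Of 11 ion exchanger genes 7 were lower and 4 higher (median −0.18), with none at an unadjusted p under 0.05; *Slc12a2*, the sodium-potassium-chloride cotransporter, had the highest CPM, at 145 ± 36.2 and 126 ± 48.9, while *Slc8a3* had the higher mean RPKM in both groups. The sodium-calcium exchangers *Slc8a3* and *Slc8a1* had the lowest p, with log2 fold changes of −0.43 and −0.30. Of 12 genes that anchor channels at the membrane 9 were lower and 3 higher (median −0.21). *Ank1*, an ankyrin, stood at 203, 199 and 243 CPM in controls and 157, 133 and 152 CPM in miDrp1KO (−0.55, unadjusted p = 0.0104). *Sptb*, a spectrin, is named because DESeq2 called it, after its values were seen. It stood at 230, 221 and 206 CPM in controls and at 159 in A, 96.3 in E and 42.7 CPM in F (log2 fold change −1.14, adjusted p = 0.417 by edgeR and 0.0341 by DESeq2), the same order of miDrp1KO libraries as *Scn4a*. *Fgf12*, which binds sodium channels, was higher at 0.542 ± 0.192 and 1.21 ± 0.245 CPM (1.22, unadjusted p = 0.0219), and *Sptbn1*, the most abundant of the list, stood at 381 ± 37.5 and 371 ± 90.3 CPM (−0.04).

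**Figure D5:**
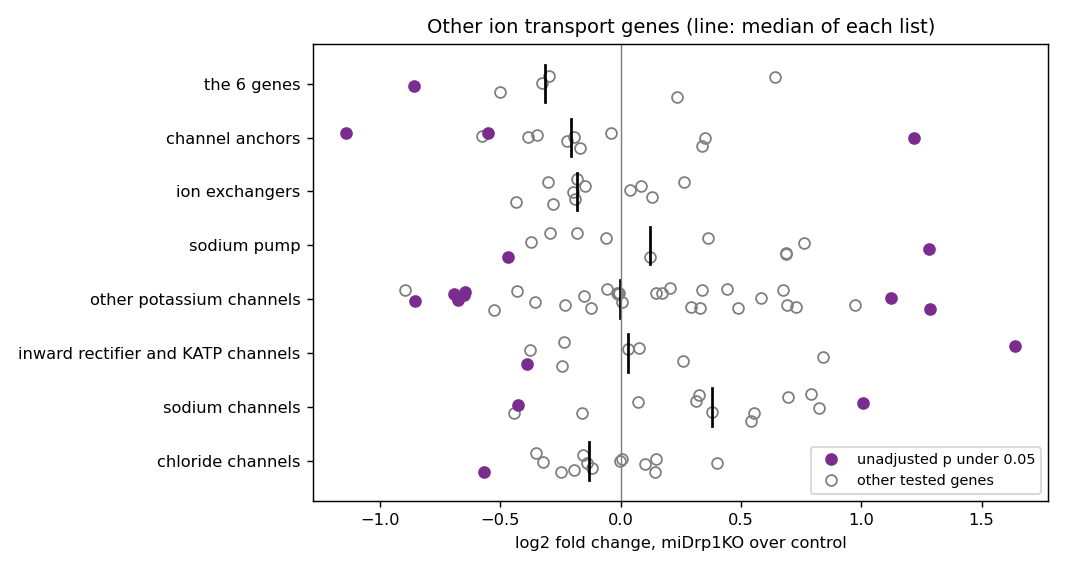
Log2 fold change (miDrp1KO over control, horizontal axis) of each tested gene of the 7 lists and of the 6 genes. Filled points have an unadjusted p under 0.05 in edgeR, open points do not, and black lines are list medians; vertical position within a row carries no meaning. The 6 genes have a median of −0.31, and the medians of the 7 lists run from −0.21 to 0.38.

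Across the 6 libraries, each of the 6 genes was standardised and the 6 profiles were averaged; the mean profile was highest in A and B and lowest in F. Of 7200 genes at or above 10 CPM, those closest to it by root mean square difference over the 6 libraries were *Foxo3* (0.0927), *Ank3* (0.0959), *Eea1* (0.0996), *Plin4* (0.104) and *Map4k3* (0.112). *Ank3* stood at 128, 120 and 117 CPM in controls and at 132, 88.6 and 66.9 CPM in A, E and F, and *Foxo3* at 15.2, 14.6 and 14.3 against 15.6, 11.8 and 9.65 CPM. In both, A stood with the controls and F was lowest, as for *Clcn1* and *Abcc9*. Both genes were picked for closeness to the mean profile, so this likeness follows from the choice. The average hides *Kcnj2* and *Atp1b1*, which were highest in E.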

How the data were processed

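The authors deposited raw counts per gene, 1 table per library; in the methods, total RNA was depleted of ribosomal RNA and sequenced in pools, and reads went through FastQC, were placed on GRCm38 and were assigned to genes by Rsubread. DESeq2 1.30.0 is in the submitters' processing notes. Pool membership, strand setting and the treatment of overlapping genes are not given in the sources used here, so pool and genotype cannot be told apart. *Clcn1* and *Atp1b1* share 8.2% and 18.7% of their exonic bases with *Fam131b* and *Nme7* on the opposite strand. Letters were taken as separate mice.

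The main test was edgeR 4.0.16 in R 4.3.3 (TMM, filterByExpr by group, robust quasi-likelihood, Benjamini-Hochberg over 16483 genes; biological coefficient of variation 0.252), and DESeq2 1.42.0 and limma 3.58.1 voom served as alternatives. Single values and ratios were compared by two-sided exact permutation tests. RPKM and positions used GENCODE exons of GRCm38. The members and lists were chosen with earlier results of these data known. Named genes were the 6 members, their partners, *Dnm1l*, from each ion transport list the gene with the highest mean CPM and the 2 with the lowest unadjusted p, and the 5 genes most like the members' mean profile. Some genes named by this rule, and 2 of the 7 ratios, are not reported here. *Kcnj11* was not matched in the RefSeq promoter table.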

Additional observations from a re-analysis of the deposited data

How the results depend on the processing

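The fold changes of the 6 genes, their median and their counts were recomputed under 16 alternatives: other normalisations and filters, DESeq2, limma voom, ribosomal RNA left out, covariates for ribosomal RNA share or slow fibre score, a length and GC correction, and each library left out. No gene changed direction, 4 of the 6 stayed lower throughout, and none passed an adjusted p of 0.05; 1 passed at an unadjusted p. The median log2 fold change of the 6 ran from −0.46 without miDrp1KO A to −0.17 with the slow fibre score. Adjusted p ran from 0.0509 to 0.877 for *Scn4a*, 0.166 to 0.906 for *Clcn1*, 0.485 to 0.932 for *Kcnj2*, 0.303 to 0.891 for *Kcnj11*, 0.115 to 0.893 for *Abcc9* and 0.566 to 0.960 for *Atp1b1*. Upper quartile normalisation moved the median of all genes from 0.017 to 0.11, and *Kcnj2* to 0.32. Every gene had at least 257 counts in each library, and what else sets the spread between libraries was not tested. Chosen after seeing the data, the same 16 alternatives were run on the count of other ion transport genes with an adjusted p under 0.05, which was 3 in DESeq2 and 0 in edgeR and in the rest, and the 5 ratios were recomputed without each library. The log2 difference in *Kcnj11* to *Abcc9* ran from −0.063 without miDrp1KO F to 0.43 without miDrp1KO A, and the other 4 ratios kept their sign. The RPKM orders and the mean profile were not recomputed. No paired analysis was possible because the groups share no replicate letters.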
